A study of Mus musculus with 12 samples.

Results

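The nuclear-encoded respiratory chain genes are the set of mitochondrial subunit genes carried on nuclear chromosomes, grouped here as complex I (Nduf genes), complex II (Sdh), complex III (Uqcr), complex IV (Cox) and complex V (Atp5). They were picked by symbol from the table of normalized counts, as Nduf followed by a, b, c, s or v and a number, Sdha to Sdhd, Uqcr, Cox4 to Cox8 followed by a, b or c, and Atp5, leaving out rows marked as pseudogenes. The pattern matched 80 of 53341 genes, and 77 of them reached 10 normalized counts in at least 3 of 12 libraries, among 18139 genes that did so. The 77 are 36 genes of complex I, 4 of complex II, 8 of complex III, 13 of complex IV and 16 of complex V. The other 3, Cox7b2, Cox8b and Cox8c, did not reach 10 in any library. Cox8c was listed at 0 throughout and Cox8b did not exceed 5.18. Just inside the limit were Cox6a2, with 4 libraries at 10 or more, and Cox7a1, with 11. The remaining 75 genes were at 10 or more in all 12 libraries.

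The cells were fibroblast-like synoviocytes, fibroblasts that line the joint cavity, cultured from the synovium of mice described as SoxC. Poly(A) RNA was sequenced from 4 groups of 3 libraries each, to separate SOXC-dependent from SOXC-independent parts of the response to TNF, an inflammatory cytokine. SoxC_KO_TNF cells were SoxC knockout cells given the Cre adenovirus Ade5CMV-Cre and TNF, and SoxC_KO cells received that virus alone. Cells called control_TNF received the adenovirus Ade5CMV-eGFP and TNF, and control cells received the eGFP virus alone. The TNF was human, made recombinantly, and was given at 10 ng/mL over 16 h. All 4 groups therefore carry an adenovirus, whose CMV promoter is not restricted to a cell type, and no group without virus is included. Each group has replicates 1, 2 and 3. What a replicate number stands for, whether replicates are separate animals or cultures, and the age and sex of the mice were not stated. The p-values therefore rest on the spread between libraries, which could be technical. Sox4, the best expressed of the 3 SoxC genes, averaged 902 ± 263 normalized counts in SoxC_KO_TNF, 1138 ± 511 in SoxC_KO, 2323 ± 1146 in control_TNF and 3413 ± 1348 in control (SD, n = 3 each), and which part of the gene Cre removes was not stated.

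The respiratory chain sits in the inner mitochondrial membrane. Complexes I and II pass electrons from NADH and succinate to ubiquinone, complex III passes them to cytochrome c, and complex IV passes them to oxygen. Complexes I, III and IV pump protons while they do so, and complex V, the ATP synthase, lets the protons flow back to make ATP. Complex II is wholly nuclear-encoded, while the other complexes also hold subunits made from mitochondrial DNA, which are not analysed here. Transcription of the nuclear genes is known to be driven by NRF1, GABP (an ETS family factor), YY1 and the estrogen-related receptors (ERR), with the PGC-1 coactivators. Synoviocytes stimulated with TNF are known for raised glycolysis.

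Promoter windows from 250 bases before to 50 after the annotated start (RefSeq, GRCm38.p6) were found for 68 of the 80 genes. They are shown as description only, and a link between the motifs and the levels of these genes was not tested. One window per complex is printed, 5′ to 3′ on the gene's strand, that of the gene with the most kinds of motif, then the most matches, with ties settled by the order of symbols. Capitals mark matches, on either strand, to the motifs of NRF1 (GCGCA, any base, then GCGC), ETS factors including GABP (CCGGAAG), YY1 (AAGATGGC) and ERR (AAGGTCA). For Ndufb4, an accessory subunit of the membrane arm of complex I, the window lies at chr16:37654319-37654618 on the minus strand. The window of Sdhd, a membrane anchor of complex II, is chr9:50603800-50604099 on the minus strand. That of Uqcrc1, a core protein of complex III, is chr9:108936398-108936697 on the plus strand. Cox6a1, the broadly expressed form of a complex IV subunit, has its window at chr5:115348909-115349208 on the minus strand. Atp5k, the small e subunit of the ATP synthase, has its window at chr5:108434350-108434649, also on the minus strand.
Ndufb4: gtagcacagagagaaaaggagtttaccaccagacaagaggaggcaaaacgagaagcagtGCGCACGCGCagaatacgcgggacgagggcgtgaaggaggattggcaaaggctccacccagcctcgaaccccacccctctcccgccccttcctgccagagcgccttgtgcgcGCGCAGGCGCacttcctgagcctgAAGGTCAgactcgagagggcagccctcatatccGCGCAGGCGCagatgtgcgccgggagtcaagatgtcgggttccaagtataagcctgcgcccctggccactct
Sdhd: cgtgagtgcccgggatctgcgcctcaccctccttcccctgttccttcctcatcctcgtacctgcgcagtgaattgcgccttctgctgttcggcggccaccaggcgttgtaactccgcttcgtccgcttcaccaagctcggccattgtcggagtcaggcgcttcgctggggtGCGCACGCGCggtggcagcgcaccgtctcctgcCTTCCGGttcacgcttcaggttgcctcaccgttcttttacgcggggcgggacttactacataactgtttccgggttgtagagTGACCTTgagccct
Uqcrc1: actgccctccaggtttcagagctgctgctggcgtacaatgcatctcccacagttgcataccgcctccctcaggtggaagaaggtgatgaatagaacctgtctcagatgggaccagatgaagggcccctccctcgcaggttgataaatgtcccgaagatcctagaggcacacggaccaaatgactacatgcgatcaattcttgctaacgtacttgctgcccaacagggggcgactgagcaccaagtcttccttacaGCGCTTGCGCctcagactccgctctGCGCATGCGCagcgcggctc
Cox6a1: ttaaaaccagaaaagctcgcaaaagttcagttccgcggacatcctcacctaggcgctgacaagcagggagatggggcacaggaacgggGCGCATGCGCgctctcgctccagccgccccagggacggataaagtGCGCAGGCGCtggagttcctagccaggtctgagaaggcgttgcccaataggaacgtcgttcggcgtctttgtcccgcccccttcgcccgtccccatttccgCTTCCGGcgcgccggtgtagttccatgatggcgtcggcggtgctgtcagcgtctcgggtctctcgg
Atp5k: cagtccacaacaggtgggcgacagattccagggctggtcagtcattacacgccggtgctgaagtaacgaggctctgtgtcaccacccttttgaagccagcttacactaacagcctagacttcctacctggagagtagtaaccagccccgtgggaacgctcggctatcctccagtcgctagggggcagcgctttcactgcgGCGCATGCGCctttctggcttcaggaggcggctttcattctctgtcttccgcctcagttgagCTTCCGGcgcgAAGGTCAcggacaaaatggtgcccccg

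Counted by gene, the NRF1 motif was present in 17 of the 68 genes (25%) and in 5.19% of 27025 genes with a promoter window. The ETS motif was in 16 genes (23.5%), against 9.93% of all genes. The YY1 motif was in 10 genes (14.7%), against 3.19% of all genes, and the ERR motif was in 8 genes (11.8%), against 5.38%. YY1 matches were in 7 genes' windows of complex I and 3 of complex V, and in none of complexes II, III and IV. A SOX motif (AACAAAG), searched because the knockout is directed at SOX factors, was in 4 genes (5.88%), against 6.68% of all genes. These are matches of letters, not binding sites, and the share in all genes includes windows of every base composition. Ndufb4 carried 3 NRF1 matches and 1 ERR match, Sdhd and Atp5k each carried 1 NRF1, 1 ETS and 1 ERR match, Cox6a1 carried 2 NRF1 matches and 1 ETS match, and Uqcrc1 carried 2 NRF1 matches, both after its start. None of the marked matches overlapped another.

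Libraries summed to between 19.6 and 23.1 M normalized counts, from about 8.14 to 13.7 M read pairs. All 10 markers of fibroblast-like synoviocytes passed the filter, with a summed level of 185739 to 552349 normalized counts per library. Skeletal muscle markers summed to 518 to 1680, and the myosin Myh4 was at 277 in SoxC_KO_TNF replicate 1 and 188 in SoxC_KO replicate 1, against 13.3 or less elsewhere. Liver markers summed to 98.8 to 4263, and Alb was at 2690 in SoxC_KO_TNF replicate 1 and 382 in control_TNF replicate 2. Summed levels were 47.3 to 457 for heart muscle, 521 to 1137 for adipocytes, 133 to 249 for endothelium, 36.3 to 288 for chondrocytes and 0 to 6.86 for testis, of which no marker passed the filter. In bulk RNA, fewer cells of a type and less RNA per cell cannot be told apart.

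All 5 complexes were expressed in every library, and levels are compared between genes as mean normalized counts per kb of annotated transcript. By this measure the highest was Atp5b, the catalytic beta subunit of the ATP synthase, at 10810 per kb, and next came Cox6a1 at 10370 per kb. The highest of complex III was Uqcrq, a small accessory subunit, at 7037 per kb. In complex I it was Ndufa4, at 4010 per kb, a protein now regarded as a subunit of complex IV although its symbol places it here. In complex II it was Sdhb, the iron-sulfur subunit that hands electrons on from the flavin, at 1888 per kb. Medians per kb were 1536 in complex I, 1572 in complex II, 2821 in complex III, 2802 in complex IV and 2846 in complex V. At the low end stood Cox6a2 at 12.3 per kb and Atp5s, a factor tied to the ATP synthase rather than a core subunit, at 68.6 per kb. Members leading on level per kb were named after their values were seen.

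No respiratory chain gene passed the test for a change with TNF or with the SoxC knockout. In each of the 4 comparisons between groups, and in their interaction, limma with Benjamini-Hochberg adjustment over all 18139 genes called 0 of the 77. Without the replicate number as a block, none of the 77 had an unadjusted p under 0.05. The background of called genes was 0.292% for TNF in knockout cells, 0.32% for TNF in control cells, and 0% for knockout with TNF, knockout without TNF and the interaction. Sox4 itself was thus not called in either knockout comparison. At an unadjusted p under 0.05, the shares of all genes were 7.38% for TNF in knockout cells, 4.21% for TNF in control cells, 1.28% (233 genes) for knockout with TNF, 0.97% (176) for knockout without TNF and 1.51% (273) for the interaction. With the replicate number as a block limma again called none of the 77, where 2.78% and 1.71% of all genes were called in the TNF comparisons and 0% in the other 3. In that fit 12 of the 77 had an unadjusted limma p under 0.05 for TNF in control cells, against 2215 of all 18139 genes. There were 5 for knockout with TNF, against 1160, and 17 for the interaction, against 3123. None of the 77 did so for TNF in knockout cells or knockout without TNF, against 3816 and 826 of all genes. The log2 changes of the 77 had a median of -0.18 for SoxC_KO_TNF against SoxC_KO (range -0.85 to 0.30), of 0.28 for control_TNF against control (-0.76 to 0.63), of -0.23 for SoxC_KO_TNF against control_TNF (-0.56 to 0.95) and of 0.20 for SoxC_KO against control (-0.13 to 1.04). Over all genes the medians were -0.0087, -0.018, -0.0036 and -0.011 in the same order. A miss of the threshold does not show that the groups were alike. These medians moved with single libraries and are given with that range.

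**Figure D1:**
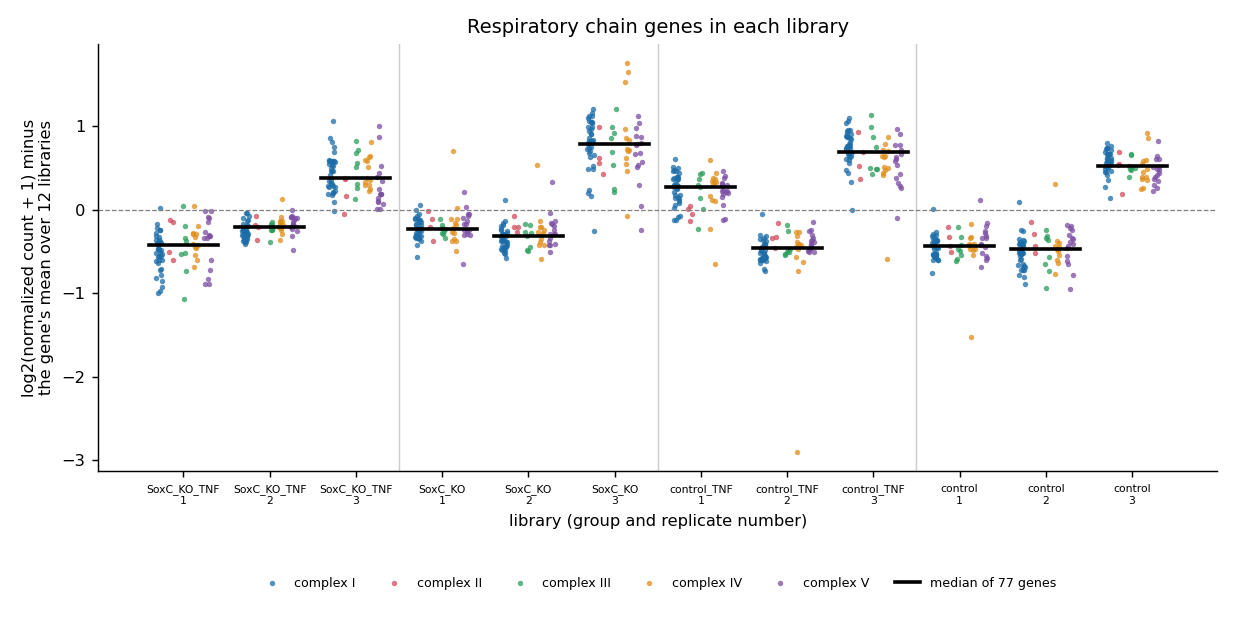
Each point is 1 of 77 respiratory chain genes, plotted for each of 12 libraries as its log2(normalized count + 1) minus its own mean over the libraries, coloured by complex, with a black bar at the median. The bars of the 4 libraries numbered 3 lie at 0.38 to 0.79 and control_TNF replicate 1 at 0.27, while the other 7 libraries lie at -0.47 to -0.21. The lowest point, near -3, is Cox6a2, listed at 0 in control_TNF replicate 2.

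For TNF in knockout cells, 63 of the 77 changes were negative and 14 positive. The median was -0.41 without SoxC_KO_TNF replicate 3 and 0.18 without SoxC_KO replicate 3, so its sign turned with a single library, and it was -0.06 without the 4 libraries numbered 3. For TNF in control cells, 71 were positive and 6 negative. That median ran between 0.03, without control_TNF replicate 3, and 0.62, without control replicate 3. For SoxC_KO_TNF against control_TNF, 73 were negative and 4 positive, and the median lay between -0.57, without control_TNF replicate 2, and 0.01, without control_TNF replicate 3. For SoxC_KO against control, 73 were positive and 4 negative, and the median was -0.14 without SoxC_KO replicate 3 and 0.53 without control replicate 3. The interaction, the TNF change in knockout cells minus that in control cells, had a median of -0.42 (75 negative, 2 positive). That median stayed below 0 with each library left out, from -0.76 to -0.11. Over all genes the interaction had a median of -0.00058 (9076 negative, 9063 positive). It shares all its libraries with the comparisons above. Of all 18139 genes, 9229 changes were negative for TNF in knockout cells and 9458 for TNF in control cells. For knockout with TNF 9162 were negative, and for knockout without TNF 9309. Members move together from library to library, so these counts of signs are not counts of independent changes.

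By complex, the TNF medians in knockout cells were -0.18 for I, -0.20 for II, -0.13 for III, -0.18 for IV and -0.19 for V. In control cells they were 0.31 for I, 0.15 for II, 0.28 for III, 0.31 for IV and 0.24 for V. The knockout medians with TNF were -0.25, -0.17, -0.24, -0.20 and -0.19 for complexes I to V, and without TNF they were 0.23, 0.18, 0.21, 0.28 and 0.17. The summed level of complex I was 0.224 ± 0.0857% of all normalized counts in SoxC_KO_TNF, 0.243 ± 0.1003% in SoxC_KO, 0.261 ± 0.1004% in control_TNF and 0.219 ± 0.0975% in control (SD, n = 3 each). Complex V summed to 0.272 ± 0.0629% in SoxC_KO_TNF, 0.304 ± 0.0964% in SoxC_KO, 0.306 ± 0.0941% in control_TNF and 0.275 ± 0.0924% in control (SD, n = 3 each). For both, the SD within a group exceeded every difference between groups.

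**Figure D2:**
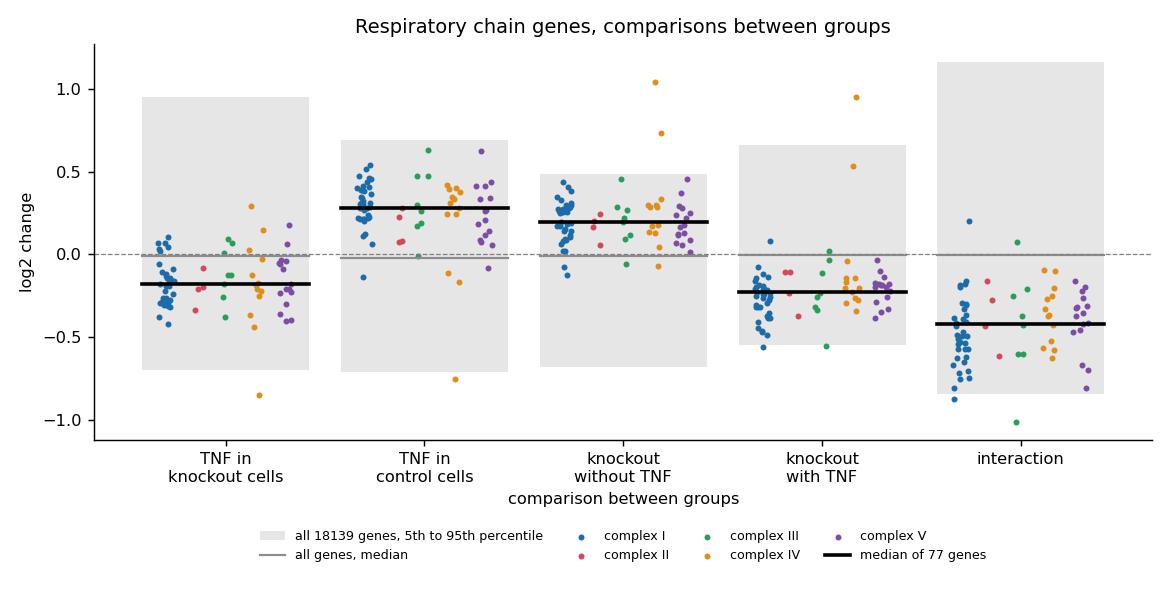
Each point is the log2 change of 1 of 77 respiratory chain genes in a comparison between groups, coloured by complex, with a black bar at their median. Grey boxes span the 5th to the 95th percentile of all 18139 genes, with their median as a grey line. The medians are -0.18, 0.28, 0.20, -0.23 and -0.42 from left to right, all within the grey boxes, and none of the 77 genes was called.

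Only 1 gene had groups that did not overlap, and only in 1 comparison. Ndufs1, the largest of the iron-sulfur subunits of complex I, was at 1738, 1818 and 1886 normalized counts in control_TNF libraries (replicates 1, 2 and 3) and at 1897, 2011 and 2077 in control libraries. The change was -0.14 on the log2 scale (SE 0.16, limma p = 0.406), and the smallest p of the exact permutation test with 3 libraries against 3 is 0.1. Over all genes, 4.11% were lower without overlap in that comparison. The shares of all genes without overlap in either direction were 12.8% for TNF in knockout cells, 8.72% for TNF in control cells, 5.16% for knockout with TNF and 4.37% for knockout without TNF. Ndufs1 overlaps Eef1b2 on the opposite strand, whose mean count of 12115 was 641% of that of Ndufs1, and whether counting used strand is not given, so the origin of its reads cannot be told apart.

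In the fit without the block, the genes closest to the threshold in either direction were far from it. With the block, the smallest limma adjusted p of the 77 was 0.252 for TNF in knockout cells and 0.284 for TNF in control cells. It was 0.618 for knockout with TNF, 0.653 for knockout without TNF and 0.284 for the interaction. The values that follow are from the fit without the block, which leaves differences between replicate numbers in the spread. For TNF in knockout cells, Atp5g2, one of the 3 genes for the c subunit that forms the rotor ring of the ATP synthase, was at 62.0, 94.5 and 108 in SoxC_KO_TNF and at 89.3, 84.6 and 195 in SoxC_KO, a log2 change of -0.40 (SE 0.35, limma adjusted p = 0.822). Cox7b, a small complex IV subunit, was at 1427, 1651 and 2737 in SoxC_KO_TNF and at 1439, 1453 and 1668 in SoxC_KO, a change of 0.30 (SE 0.32, limma adjusted p = 0.841). The highest value was that of SoxC_KO replicate 3 for Atp5g2 and that of SoxC_KO_TNF replicate 3 for Cox7b. For TNF in control cells, Ndufa4 was at 3383, 1892 and 3318 in control_TNF and at 1914, 1799 and 2896 in control, a change of 0.36 (SE 0.28, limma adjusted p = 0.998). In the interaction, Cox5a, a nuclear subunit next to the catalytic core of complex IV, had a value of -0.56 (SE 0.46, limma adjusted p = 0.884). Cox5a was at 1301, 1540 and 2146 in SoxC_KO_TNF, 1777, 1330 and 2866 in SoxC_KO, 2203, 1454 and 2335 in control_TNF and 1390, 1258 and 2087 in control. For knockout with TNF, Ndufc2, an accessory subunit of the membrane arm of complex I, was at 623, 929 and 1763 in SoxC_KO_TNF and at 1557, 849 and 2470 in control_TNF, a change of -0.56 (SE 0.54, limma adjusted p = 0.997).

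The replicate number, in contrast, went with large differences in these genes. What a number stands for is not known. If each number is a single animal or culture, its p-values measure agreement across the groups, not spread between animals or cultures. In a limma model of group and replicate number, 69 of the 77 were higher in the 4 libraries numbered 3 than in the 4 numbered 1, and none was lower, with a median log2 difference of 0.82 (1.77-fold). Over all genes, 22.1% were higher, 25.2% were lower and the median was -0.06. Against the libraries numbered 2, 72 of the 77 were higher and none lower, with a median of 0.96 (1.95-fold), where 23.8% of all genes were higher and 28.6% lower. Between numbers 2 and 1 limma called none of the 77 and none of all genes (0%). None of the 77 had an unadjusted p under 0.05 there, against 227 of all genes (1.25%), and their median was -0.15. The 77 genes together made up 1.03% to 1.17% of normalized counts in the libraries numbered 3, 0.581% to 0.867% in those numbered 1 and 0.571% to 0.660% in those numbered 2. The highest of the libraries numbered 1 was control_TNF replicate 1, in which 66 of the 77 genes were above their own mean, against 2 to 5 in the other libraries of that number.

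The direction was the same in each group. Number 3 held the highest of 3 values for all 77 genes in SoxC_KO_TNF, for 75 in SoxC_KO, for 72 in control_TNF and for all 77 in control. It was the highest in all 4 groups for 70 genes and in 3 groups for the other 7, which were Ndufa4, Ndufs1, Cox7a1, Cox7b, Atp5g2, Atp5j and Atp5s. The share of all genes with number 3 highest was not counted. The median log2 difference of number 3 from the mean of numbers 1 and 2 was 0.74 in SoxC_KO_TNF, 1.03 in SoxC_KO, 0.81 in control_TNF and 1.01 in control. Over all genes it was -0.05, -0.03, -0.01 and -0.04 in the same order. This difference was above 0 for 77, 75, 76 and 77 of the 77 genes. Of all 18139 genes it was above 0 for 8505, 8900, 8943 and 8788. Left-out libraries changed the number of genes called in number 3 against 1 to between 63 and 73, and in number 3 against 2 to between 69 and 73. Without SoxC_KO_TNF replicate 1 and SoxC_KO replicate 1 together, the libraries with the most Myh4, number 1 had only 2 libraries left, 1 of them control_TNF replicate 1. Then 31 of the 77 genes (40.3%) were called against number 1, all higher, with a median of 0.64, and 6.45% of all genes were called higher.

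**Figure D3:**
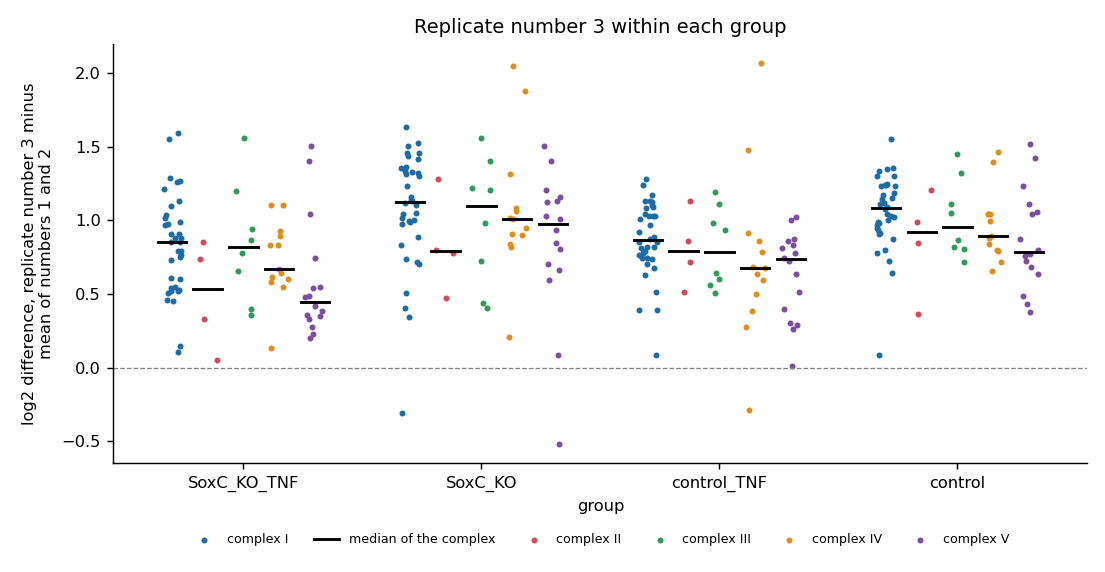
Each point is 1 of 77 genes, and the vertical axis gives the log2 difference of the library numbered 3 from the mean of numbers 1 and 2 in the same group. Short black bars are medians by complex. The medians of complex I are 0.85 in SoxC_KO_TNF, 1.12 in SoxC_KO, 0.86 in control_TNF and 1.09 in control, and those of complex V are 0.45, 0.97, 0.73 and 0.79.

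In complex I, 34 of 36 genes were higher in number 3 than in number 1 and 35 of 36 than in number 2, with medians of 0.94 and 1.12. Values by replicate number are given here for SoxC_KO_TNF, SoxC_KO, control_TNF and control, always in that order. Ndufv1, the subunit that binds NADH and the flavin, was at 1960, 3416, 2973 and 2437 normalized counts in libraries numbered 3, at 1062, 1288, 1405 and 1111 in those numbered 1, and at 1251, 1127, 1065 and 1082 in those numbered 2. Every number 3 value lay above every other value. The log2 difference was 1.13 against number 1 (SE 0.149, limma adjusted p = 0.000196) and 1.22 against number 2 (SE 0.149, limma adjusted p = 7.36e-05). Ndufb6, an accessory subunit of the membrane arm, was at 2390, 3043, 2718 and 2305 in number 3, at 658, 1053, 1724 and 866 in number 1, and at 1011, 910, 889 and 713 in number 2. Its difference was 1.36 (limma adjusted p = 0.000326) and 1.57 (limma adjusted p = 9.38e-05), the largest in complex I in both comparisons. Again no library of another number reached the lowest of number 3.

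Among other core subunits of the electron-carrying arm, Ndufs3 was higher by 0.83 and 0.97 against numbers 1 and 2, Ndufs7 by 0.79 and 0.91, Ndufs8 by 0.98 and 1.11, and Ndufv2, an iron-sulfur subunit next to Ndufv1, by 0.64 and 0.77. Each passed the threshold in both comparisons. Ndufs5, an accessory subunit on the intermembrane side, had the lowest mean count of complex I, at 419. Ndufs5 was at 587, 638, 670 and 601 in number 3, at 238, 336, 501 and 311 in number 1, and at 313, 303, 274 and 259 in number 2. Number 3 did not overlap with the other libraries. Ndufb2, another accessory subunit of the membrane arm, was higher by 1.19 and 1.43, but it shares its position with Braf on the opposite strand, at 90.1% of its level, which differed by -1.54 and -1.82.

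Ndufs1 was the exception among the core subunits named here. It was at 2013, 1585, 1886 and 2077 in number 3, at 1908, 1883, 1738 and 1897 in number 1, and at 1831, 2043, 1818 and 2011 in number 2. The range of number 3 held those of both other numbers, with differences of 0.02 (SE 0.115, limma adjusted p = 0.902) and -0.03 (SE 0.115, limma adjusted p = 0.835). Eef1b2, which overlaps it on the opposite strand, was higher in number 3 by 0.64 and 0.81. Ndufa4 was the other gene of complex I not called against number 1, at 0.34 (limma adjusted p = 0.0749), and it was called against number 2, at 0.57 (limma adjusted p = 0.00637).

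All 4 genes of complex II were higher in number 3 in both comparisons, with medians of 0.73 and 0.79. Sdhb, the iron-sulfur subunit, was at 2567, 3947, 3772 and 3220 in number 3, at 1305, 1527, 2054 and 1402 in number 1, and at 1538, 1719, 1442 and 1383 in number 2. The libraries numbered 3 did not overlap with the rest, and the differences were 1.10 (SE 0.14, limma adjusted p = 0.00016) and 1.14 (SE 0.14, limma adjusted p = 7.89e-05). Sdha, the flavin subunit that oxidises succinate and also serves the citric acid cycle, moved least, at 4501, 6269, 6017 and 5308 in number 3, 4265, 4614, 4251 and 4032 in number 1, and 4435, 4407, 4168 and 4225 in number 2. In SoxC_KO_TNF its value in number 3 was close to that in number 2, and SoxC_KO replicate 1 lay above it. The differences of Sdha were 0.35 in both comparisons (limma adjusted p = 0.0228 and 0.0224) and missed the threshold in 7 and 8 of 22 other settings, where adjusted p ran up to 0.133 and 0.103. The membrane anchors Sdhc and Sdhd, which hold the ubiquinone site, were higher by 0.64 and 0.71 and by 0.82 and 0.86.

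All 8 genes of complex III were higher in number 3 in both comparisons, with medians of 0.82 and 0.94. Uqcr11, a small accessory subunit, was at 2307, 2999, 2860 and 2074 in number 3, at 617, 1107, 1743 and 851 in number 1, and at 990, 933, 893 and 677 in number 2. Within number 1, its value in control_TNF replicate 1 was the highest and came nearest to number 3. The differences of Uqcr11 were 1.33 (SE 0.202, limma adjusted p = 0.000391) and 1.55 (SE 0.202, limma adjusted p = 0.000106). Uqcrh, the hinge protein that helps bind cytochrome c1, was at 3677, 4042, 4446 and 3522 in number 3, at 1346, 1840, 2737 and 1479 in number 1, and at 1894, 1640, 1549 and 1343 in number 2. It was higher by 1.13 and 1.29, again without overlap.

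Uqcrfs1, the Rieske iron-sulfur protein that takes electrons from ubiquinol, was higher by 0.67 and 0.71, and the core proteins Uqcrc1 and Uqcrc2 by 0.84 and 0.89 and by 0.51 and 0.57. Uqcrc1, which had the highest mean count of complex III at 4073, was at 4216, 7326, 6481 and 5472 in number 3, at 3059, 3148, 3878 and 2886 in number 1, and at 3337, 3193, 2776 and 3108 in number 2. Its lowest value in number 3 was that of SoxC_KO_TNF. Uqcrb, a ubiquinone-binding subunit with the lowest mean count of the complex at 1338, was higher by 0.52 (limma adjusted p = 0.0208) and 0.73 (limma adjusted p = 0.00281).

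Of the 13 genes of complex IV, 10 were higher in number 3 than in number 1 and 11 than in number 2, with medians of 0.80 and 0.86. Cox6a1, the most abundant by count at a mean of 5921, was at 6704, 10228, 8033 and 7380 in number 3, at 4122, 5058, 7626 and 4155 in number 1, and at 5098, 4584, 4214 and 3854 in number 2. Control_TNF replicate 1 lay inside the range of number 3. The differences were 0.66 (SE 0.172, limma adjusted p = 0.00835) and 0.85 (SE 0.172, limma adjusted p = 0.00146). Cox5a and Cox5b, which sit next to the catalytic core, were higher by 0.52 and 0.75 and by 0.87 and 1.15. The call of Cox5a against number 1 was lost in 3 of 22 other settings, where adjusted p ran up to 0.234. Cox7b was not called against number 1, at 0.45 (limma adjusted p = 0.0592), and was called against number 2, at 0.61 (limma adjusted p = 0.0144). The call against number 2 was lost in 3 of 22 other settings.

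Several complex IV subunits come as a broadly expressed form and a tissue form, and the broad form was the main one here. Cox6b1 was at 3802, 5005, 4822 and 4604 in number 3, at 2029, 2571, 3907 and 2212 in number 1, and at 2804, 2609, 2329 and 2264 in number 2, with control_TNF replicate 1 above the lowest value of number 3. Its testis form, Cox6b2, was at 210, 442, 257 and 267 in number 3, at 87.0, 108, 89.0 and 124 in number 1, and at 109, 104, 94.1 and 81.9 in number 2. Cox6b2 showed the largest difference of all 77 genes against number 1, at 1.48 (SE 0.202, limma adjusted p = 0.000229), and was higher by 1.54 against number 2 (limma adjusted p = 0.000109). Control_TNF replicate 1 lay with the other libraries numbered 1 for this gene. The testis markers were at most 6.86 in sum in any library.

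The heart and skeletal muscle forms were low. Cox6a2 was at 10.6, 20.6, 9.59 and 12.5 in number 3, at 5.18, 11.1, 5.37 and 1.59 in number 1, and at 5.81, 9.86, 0 and 8.26 in number 2. Cox7a1 was at 19.3, 57.7, 10.5 and 19.6 in number 3, at 17.0, 15.1, 17.9 and 12.7 in number 1, and at 18.03, 14.8, 9.48 and 10.4 in number 2. Both were highest in SoxC_KO replicate 3, where Myh4 was at 2.68 and Ckm, muscle creatine kinase, at 4.45, while Acta1, skeletal muscle actin, had its highest value of 1146. The part of muscle transcripts in these values was not tested. Neither was called by number or by group, and Cox6a2 was called in 1 of 21 other settings against number 1 and in 3 of 21 against number 2. For SoxC_KO against control, Cox7a1 differed by 0.73 (SE 0.51, limma adjusted p = 0.999), and for SoxC_KO_TNF against control_TNF, Cox6a2 differed by 0.95 (SE 0.87, limma adjusted p = 0.997). Cox7a2, the broad partner of Cox7a1, was higher in number 3 by 0.86 and 1.09, Cox7a2l, a factor that joins complexes III and IV, by 0.80 and 0.96, and Cox8a by 0.70 and 0.81. The tissue forms Cox7b2, Cox8b and Cox8c did not pass the filter.

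**Figure D4:**
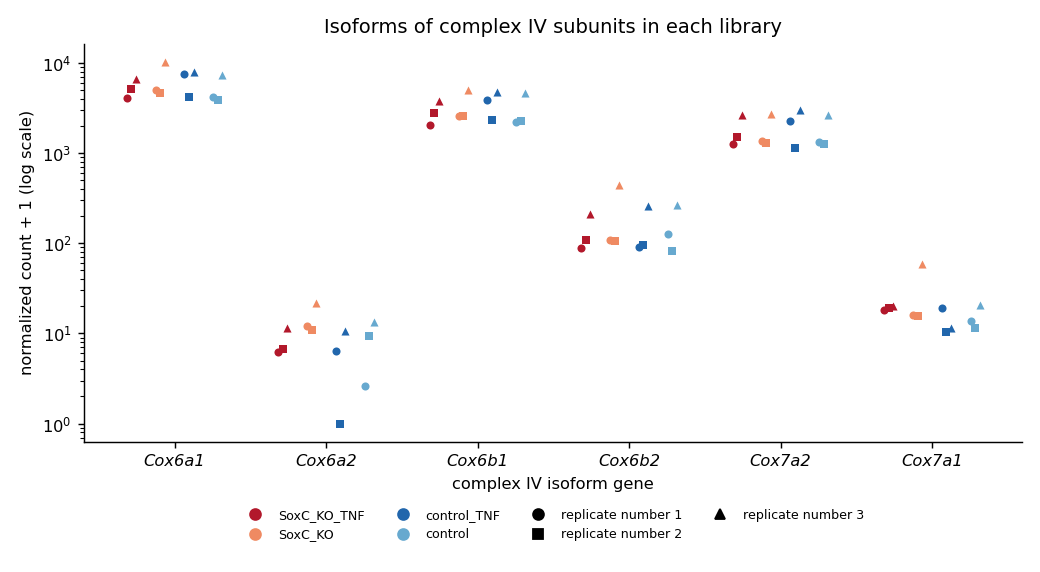
Normalized count + 1 on a log axis for the broad and tissue forms of 3 complex IV subunits, with 1 point per library, coloured by group and shaped by replicate number. Cox6a1, Cox6b1 and Cox7a2 stand above 1000 in every library, Cox6b2 lies between 81.9 and 442, and Cox6a2 and Cox7a1 reach 20.6 and 57.7 at most, both in SoxC_KO replicate 3.

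Of the 16 genes of complex V, 13 were higher in number 3 than in number 1 and 14 than in number 2, with medians of 0.67 and 0.74. Atp5b was at 21005, 34264, 31041 and 26678 in number 3, at 16069, 17712, 18451 and 16107 in number 1, and at 17410, 18118, 15514 and 16181 in number 2. No other library reached number 3, and the differences were 0.70 (SE 0.13, limma adjusted p = 0.00115) and 0.73 (SE 0.13, limma adjusted p = 0.000674). Its partner in the catalytic head, Atp5a1 (alpha), was higher by 0.57 and 0.56, and Atp5c1 (gamma), the turning shaft, by 0.63 and 0.74. Atp5k and Atp5e had the largest differences of the complex. Atp5k was at 724, 660, 618 and 643 in number 3, at 194, 230, 481 and 238 in number 1, and at 332, 269, 270 and 210 in number 2, a difference of 1.30 in both comparisons (limma adjusted p = 0.000843 and 0.000578). Atp5e, the epsilon subunit of the central stalk, was higher by 1.25 and 1.43.

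The c subunit of the rotor is made from 3 genes that encode the same mature protein. Atp5g3 was the most abundant, at 4222, 5396, 4815 and 4193 in number 3, 1652, 2995, 3419 and 2161 in number 1, and 2540, 2325, 2130 and 1920 in number 2, and it was higher by 0.91 (limma adjusted p = 0.00123) and 1.06 (limma adjusted p = 0.000357). Atp5g1 was higher by 0.52 (limma adjusted p = 0.0123) and 0.64 (limma adjusted p = 0.00303). Its call against number 1 was lost in 3 of 22 other settings, where adjusted p ran up to 0.216. Atp5g2 was at 108, 195, 88.1 and 116 in number 3, 62.0, 89.3, 112 and 82.6 in number 1, and 94.5, 84.6, 68.5 and 82.9 in number 2, and was not called (0.51 and 0.56, limma adjusted p = 0.0979 and 0.0709). It was called in 2 of 22 other settings against number 1 and in 4 of 22 against number 2. Atp5s (-0.03 and 0.29) was not called either, and Atp5f1, the b subunit of the outer stalk, was called only against number 2 (0.31, limma adjusted p = 0.0479, and 0.28, adjusted p = 0.076, against number 1). Atp5s and Atp5f1 were named after their values were seen.

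Most of these genes have short transcripts, with a median of 763 nt against 2880 nt over 14417 protein-coding genes that passed the filter. Across the 77 genes, the difference of number 3 from the mean of the others had a Pearson r of -0.50 and a Spearman rho of -0.40 with the log2 transcript length. Over all 14417 coding genes these were -0.59 and -0.60. Genes in these correlations share the same 12 libraries and are not independent. For transcripts under 1000 nt the median difference was 0.99 in 49 respiratory chain genes and 0.72 in 953 other coding genes, and from 1000 to below 2000 nt it was 0.81 in 22 and 0.44 in 3171. It was 0.46 in 4 and 0.08 in 3405 from 2000 to below 3000 nt, and 0.63 in 2 and -0.26 in 4241 from 3000 to below 5000 nt, while 2570 other coding genes of 5000 nt or more had a median of -0.89. Coding genes with transcripts under 1 kb took 9.63% to 10.9% of coding counts in libraries numbered 3, 5.38% to 8.75% in those numbered 1, where 8.75% was control_TNF replicate 1, and 5.26% to 6.55% in those numbered 2. For transcripts over 5 kb the shares were 11.5% to 14.1%, 17.5% to 25.4% and 21.5% to 24.8%. The part of transcript length in the difference of the respiratory chain genes was not tested.

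**Figure D5:**
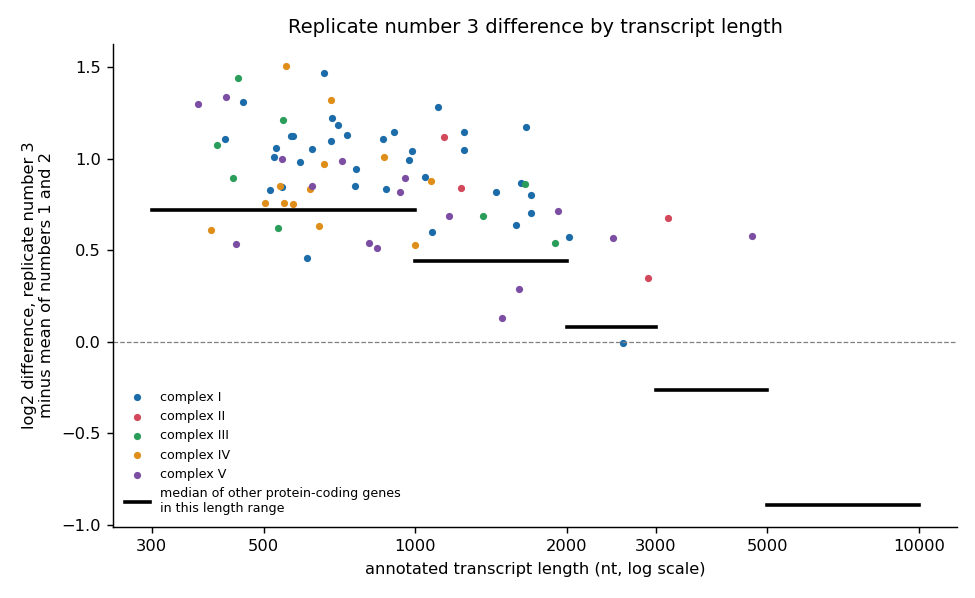
Annotated transcript length in nt on a log axis against the log2 difference of the libraries numbered 3 from the mean of numbers 1 and 2, with 1 point for each of 77 respiratory chain genes. Black bars give the median of other protein-coding genes by length range, which falls in steps of 0.72, 0.44, 0.08, -0.26 and -0.89. The medians of the respiratory chain genes, 0.99, 0.81, 0.46 and 0.63 in the shortest 4 ranges, lie above those bars.

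Chain subunits whose symbols the pattern does not take were also higher in number 3. All 9 with values, among them Cox4i1 (a complex IV subunit), Cyc1 (cytochrome c1 of complex III), Cycs (cytochrome c) and Ndufab1 (the acyl carrier protein of complex I), were higher in number 3 in both comparisons, with medians of 0.70 and 0.79. Cox4i1 was higher by 1.06 and 1.203, and Cyc1 by 1.02 and 1.05. None of the 9 was called between groups by limma, and 2 had an unadjusted p under 0.05 for TNF in knockout cells. Cox4i2 and Ndufa4l2, forms known to rise in low oxygen, differed by -0.83 and -0.94 in SoxC_KO_TNF against SoxC_KO and by -0.42 and -0.19 in control_TNF against control. They belong to a list of 8 genes tied to low oxygen, of which only Egln3, a prolyl hydroxylase, was called between groups, higher by 0.996 on the log2 scale in control_TNF than in control (limma adjusted p = 0.0495). In SoxC_KO_TNF against SoxC_KO it differed by 0.97 (limma adjusted p = 0.0538).

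Assembly factors, which build the complexes but do not stay in them, were higher in number 3 against 1 and 2 for 10 and 12 of 16 genes of complex I (1 and 0 lower), 2 and 2 of 4 of complex II, 3 and 4 of 6 of complex III, 13 and 15 of 24 of complex IV (2 lower in each) and 3 and 3 of 4 of complex V. Uqcc2, an assembly factor of complex III, was higher by 1.30 and 1.496, and Tmem70 and Acad9, the most abundant of complex I, differed by 0.25 and 0.22 and by 0.20 and 0.19, which did not pass. Of 17 tricarboxylic acid cycle genes, 8 and 7 were higher and 1 was lower in each comparison, with medians of 0.17 and 0.20. Mdh2, malate dehydrogenase, was higher by 0.46 and 0.51, while Cs, citrate synthase, differed by -0.12 and -0.22 and did not pass. None of these genes was called between groups. Among all genes, 22.1% and 23.8% were higher in number 3 against 1 and 2, and 25.2% and 28.6% were lower.

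Regulators of mitochondrial biogenesis, a list that also holds factors acting on mitochondrial DNA such as Tfam, did not share one direction. Of 18 tested, 3 were higher and 8 lower in number 3 in each comparison, with medians of -0.02 and -0.19. The shares of all genes were 22.1% and 23.8% higher and 25.2% and 28.6% lower. Hif1a, the oxygen-regulated factor and most abundant of the list, was lower (-1.16 and -1.34 on the log2 scale), as was Yy1 (-0.43 and -0.48). Gabpa, the DNA-binding part of GABP, was lower (-0.68 and -0.87), and it overlaps Atp5j on the opposite strand at 73.4% of the level of that gene. By contrast Nrf1 was higher by 0.39 and 0.34 and Esrra, an estrogen-related receptor, by 1.19 and 1.37, while the coactivator Ppargc1a was lower (-1.46 and -0.93). Tfam, which packages and transcribes mitochondrial DNA, differed by 0.07 and 0.11 and did not pass. None of the 18 was called between groups by limma, and at an unadjusted p under 0.05 there was 1, in the interaction.

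Ribosomal protein genes were higher in number 3 as well. Against numbers 1 and 2, the shares of all genes were 22.1% and 23.8% higher and 25.2% and 28.6% lower. Of 78 mitochondrial ribosomal protein genes, 64 and 69 were higher in number 3 and none lower, with medians of 0.75 and 0.80. Of 90 cytosolic ribosomal protein genes, 82 and 87 were higher and none lower, with medians of 0.72 and 0.85. Of 17 glycolysis genes, 6 and 7 were higher and 1 and 2 lower, with medians of 0.19 and 0.22. Some markers of cell types also differed by replicate number. Of 10 fibroblast-like synoviocyte markers, 6 were lower in number 3, and their summed level was 185739 to 380681 there, 384822 to 552349 in number 1 and 438938 to 513997 in number 2. Chondrocyte markers were lower for 2 of 2 tested and skeletal muscle markers for 4 and 1 of 7. Endothelial markers were lower for 1 of 4 in each comparison and heart markers for 1 and 0 of 4. These endothelial and heart counts are near or below the 25.2% and 28.6% of all genes that were lower. So is the 1 of 7 for skeletal muscle against number 2. For adipocytes 1 of 2 markers was higher, and none of 3 liver markers was called. Of 5 macrophage markers tested, 4 were higher, and their summed level was 3382 to 3938 in number 3, 1364 to 1877 in number 1 and 1345 to 2025 in number 2. The part of these differences in the values of the respiratory chain genes was not tested.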

How the data were processed

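Poly(A) RNA of 12 libraries was measured in 1 table of 53341 genes. The deposited values are log2 normalized counts per gene and library, per the file headers, with values at or under 1 listed as 0. Per the submitters' processing notes the build was mm10 and DESeq was used. Aligner, annotation and strand use were not stated. The planned design assumed a linear scale, so the deposited log2 values were turned back to linear counts, with 0 left at 0, and analysed as log2(normalized count + 1), which understates changes of low genes. In 53.5% to 60.2% of cases a low value was a whole number of reads or lay midway between whole numbers (tolerance 0.01 step), which does not recover whole reads, and count models were not used. Read pairs were estimated from the commonest low value of each library.

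Genes with at least 10 normalized counts in at least 3 libraries were kept. Group differences came from limma 3.58.1 (R 4.3.3), with a mean for each of the 4 groups and an intensity trend. Benjamini-Hochberg adjustment was over 18139 genes (threshold 0.05). The procedure was tested on simulated data, which does not measure its power between groups in these libraries. The log2 library medians of the respiratory chain genes had an SD of 0.5711 within groups and 0.1902 after group and number. The fit between groups leaves the larger spread in place. Replicate numbers were compared in a second limma fit of group and number. The settings tried instead were the pseudocount, the filter, the scaling, the trend, the replicate block and left-out libraries. Same-numbered libraries correlated, after group means were removed, by 0.340, 0.148 and 0.501 for TNF in knockout cells, by 0.103, 0.550 and 0.715 for TNF in control cells, by 0.0537, 0.189 and 0.526 for knockout with TNF, and by 0.457, 0.515 and 0.707 for knockout without TNF. Over the cutoff of 0.1 in every pair, the numbers were read as pairs in all but the comparison with TNF, although the libraries numbered 3 alone could give such values. The main fit between groups did not use the pairs, and the p-values of single genes between groups come from it. No pair of libraries was identical.

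Transcript lengths came from GENCODE M21, whose identifiers matched 99.8% of the table, and promoters from RefSeq. Of the 80 genes, 33 overlap another gene and 14 overlap one above 10% of their own level, and without known strand use their reads cannot be told apart. Processed copies under other names were not examined. Named genes were, by rule, the extremes of each complex by count, core subunits, tissue forms, the members with the largest changes or smallest p, and the leading genes of other lists, of which 1 is not reported here. The members and lists were chosen with earlier results of these data known. Figures were drawn with matplotlib 3.10.9.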

Additional observations from a re-analysis of the deposited data

How the results depend on the processing

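With each library left out in turn, none of the 77 genes was called in any comparison between groups or between numbers 2 and 1. The median log2 change ran from -0.41 to 0.18 for TNF in knockout cells, from 0.03 to 0.62 for TNF in control cells, from -0.57 to 0.01 for knockout with TNF, from -0.14 to 0.53 for knockout without TNF, from -0.76 to -0.11 for the interaction and from -0.26 to 0.01 for number 2 against 1. With the replicate block none was called either, and 0, 12, 5, 0 and 17 of the 77 had an unadjusted p under 0.05 in the same order of the first 5, against 3816, 2215, 1160, 826 and 3123 of all 18139 genes. Leaving out the 2 libraries with liver transcripts, the 2 with the most Myh4 or the 4 numbered 3 was chosen after seeing the data. The medians for TNF in knockout cells were then 0.01, -0.13 and -0.06, for TNF in control cells 0.60, 0.28 and 0.35, for knockout with TNF -0.38, -0.07 and -0.21, and for knockout without TNF 0.20, 0.37 and 0.19. Without the 2 libraries with the most Myh4, 31 genes were called in number 3 against 1, with 2 libraries numbered 1 left. Under the other settings that count was 67 to 70, and 70 to 74 against number 2. For Ndufs1 the difference of number 3 from 1 turned to -0.0041 with equal totals and -0.018 with quantile normalization. With libraries left out it lay between -0.02 and 0.12, and against number 2 between -0.079 and 0.068. The cause was not tested. Of 1624 values of single genes under other settings, 53 changed their call or sign, in 21 results. Depth limits Cox6a2 and Cox7a1 most, whose counts were mostly under 20.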
